A study of Mus musculus with 8 samples.

Results

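The genes described here encode the proteins of the cytosolic ribosome and the factors that start and extend protein chains on it. They were chosen by symbol from a table of gene counts: symbols beginning Rps for the small subunit, Rpl and Rplp for the large subunit, Eif1 to Eif6 for initiation, and Eef1 and Eef2 for elongation, without the Eif2ak kinases. The rule took 142 of the 15288 genes in the table, of which 30 were small-subunit, 46 large-subunit, 54 initiation and 12 elongation genes. The rule itself reads only symbols.

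The cells were a mouse kidney line labelled IMCD, for inner medullary collecting duct, with duct cells given as the cell type. They were grown to 90% confluence and then kept for 12 h in DMEM without serum, either unchanged (control, 4 libraries) or with 100 mmol NaCl (4 libraries). Withdrawal of serum was therefore shared by both groups, and the labels give the amount of salt without a volume. Total RNA was extracted with Trizol and sequenced in bulk, and the libraries are named by their label numbers, control replicates 1 to 4 and NaCl replicates 5 to 8. The labels do not say that these were separate cultures, so the p-values measure the spread between these samples, which may be technical.

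Total counts per library lay between 35.29 and 47.57 M. All NaCl libraries carry higher label numbers than the control libraries, so a step between the numbers 4 and 5 cannot be told apart from the group. A fit with a steady trend along the number is given after the classes. Of 16 collecting duct markers, 15 were in the table and 11 had at least 10 counts in every library, among them Krt8, Krt18, Pax8, Hoxb7 and Cdh16. Elf5 was absent from the table. Aqp2, the water channel that defines principal cells, had 0 to 15 counts, Aqp3 had 3 to 28, Scnn1b had 1 to 14 and Cdh1 had 2 to 30. The summed level of that list was 1279.9 to 1587 counts per M counts of the library (CPM) in the control and 2240.3 to 2427 CPM in the NaCl libraries. For these markers the library totals were left unscaled, while CPM of all other genes used totals scaled by edgeR's TMM factors. Within it Cdh16 (637 and 1384 CPM on average), Pax2 (78.5 and 186) and Pax8 (159 and 232) had higher means with NaCl, while those of Krt8, Krt18, Hoxb7, Gata3, Tfcp2l1 and Scnn1g were lower. Of 3 proximal tubule markers 2 were in the table, with a sum of 162.6 to 203 CPM in the control and 157.6 to 174.8 CPM in the NaCl libraries. Of these, Lrp2 had means of 184 and 162 CPM and Cubn of 2.155 and 2.462 CPM. The 3 fibroblast markers summed to 2667 to 3114 CPM in the control and 2405 to 2736 CPM in the NaCl libraries, nearly all of it Col1a1 (means of 2483 and 2155 CPM) and Col3a1 (379.5 and 461 CPM). The 2 immune markers in the table summed to 5.97 to 7.11 CPM and 14.9 to 15.6 CPM, respectively, with a mean of 4.04 and 13.5 CPM for Ptprc and of 2.40 and 1.69 CPM for Cd68. The part of these levels in the results below was not tested, and in bulk RNA fewer cells and less RNA per cell cannot be told apart.

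Ribosomal proteins assemble with ribosomal RNA into a small subunit, which reads the messenger RNA, and a large subunit, which joins the amino acids. Initiation factors bring the initiator tRNA and the capped end of the messenger RNA to the small subunit, and elongation factors deliver each further tRNA and move the ribosome along. Messenger RNAs for ribosomal proteins and several of these factors are known for starting with a cytosine followed by a run of pyrimidines, the terminal oligopyrimidine motif, through which mTORC1 and LARP1 control their translation and stability.

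The starts of 7 members are shown because the motif marks this class of messenger RNA. Genes with it and genes without it at the annotated start were both among those called lower with salt. Each sequence is from RefSeq on GRCm38.p6 and runs from 20 bases before to 20 bases after the annotated start site, on the strand of the gene. Capitals mark the run of pyrimidines at the start, and a sequence with no capitals has no such run at that position. The windows lie at chr4:86857348-86857387 on the minus strand (Rps6), chr17:33955646-33955685 on the minus strand (Rps18), chr3:90213629-90213668 on the minus strand (Rps27), chr2:39005112-39005151 on the minus strand (Rpl35), chr14:18270967-18271006 on the minus strand (Rpl15), chrX:94212632-94212671 on the minus strand (Eif2s3x) and chr17:24720043-24720082 on the plus strand (Rps2).
Rps6: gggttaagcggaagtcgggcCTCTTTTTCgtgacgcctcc
Rps18: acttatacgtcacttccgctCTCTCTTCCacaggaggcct
Rps27: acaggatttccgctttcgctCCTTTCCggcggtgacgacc
Rpl35: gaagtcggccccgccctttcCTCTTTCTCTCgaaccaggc
Rpl15: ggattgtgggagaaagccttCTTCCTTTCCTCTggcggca
Eif2s3x: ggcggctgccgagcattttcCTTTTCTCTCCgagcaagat
Rps2: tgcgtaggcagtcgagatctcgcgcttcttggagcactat

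The motif was searched as a C at the start site followed by at least 4 bases that are each C or T, on the transcribed strand. It stood at the RefSeq start of 15 of the 103 members found in the promoter table (14.6%), against 813 of 27025 genes with a promoter (3.01%). Among the ribosomal protein genes it was at the start of 13 of 56 (23.2%). Allowing the run to begin within 5 bases of the annotated start gave 39 members (37.9%) against 21.2% of all promoters, and taking the first base of any GENCODE transcript gave 49 of 142 members (34.5%) against 9.77% of the genes in the table. The median log2 fold change of the ribosomal protein genes with the run at the RefSeq start was -0.20 and of those without it -0.23, while by GENCODE starts the order turned, at -0.24 with the run and -0.21 without it. These medians are a description of the members. Rps6, Rps18, Rpl35, Rpl15 and Eif2s3x carried the run and were lower with NaCl, Rps27 carried it and was not called, and Rps2 had no run at its annotated start, with a run beginning within 5 bases of it, and had the lowest fold change of the ribosomal protein genes. The annotated starts were not measured in these cells.

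In 141 of the 142 genes the counts were high enough to test. Each was compared between the groups with edgeR's quasi-likelihood test over all 14024 genes that passed the filter on low counts, and a gene was called at a Benjamini-Hochberg adjusted p-value under 0.05. Fold changes are log2 of NaCl over control. Across all tested genes 17.2% were called lower with NaCl, 16.9% were called higher, and in 16.9% all 4 NaCl libraries lay under all 4 control libraries.

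Against that background, 98 of the 141 members were called lower with NaCl and 0 were called higher. The 0 was reached with edgeR, where 2 members, Eif2b2 and Eef1a1, were higher at an unadjusted p under 0.05, and DESeq2 and limma-voom also called 0 higher. Counts were 24 of 30 for the small subunit, 40 of 46 for the large subunit, 30 of 53 for initiation and 4 of 12 for elongation. The elongation class includes 6 kinase and methyltransferase genes (1 called lower) and 1 other gene named for the factors (not called). The median log2 fold change was -0.21 for the small subunit, -0.22 for the large subunit, -0.11 for initiation and -0.15 for elongation, beside 0.0029 for all tested genes. The decreases were small: 10 members had a fitted level at least 20% lower, among them Eif1ad10, which was not called. In 87 members all 4 NaCl libraries lay under all 4 control libraries.

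**Figure D1:**
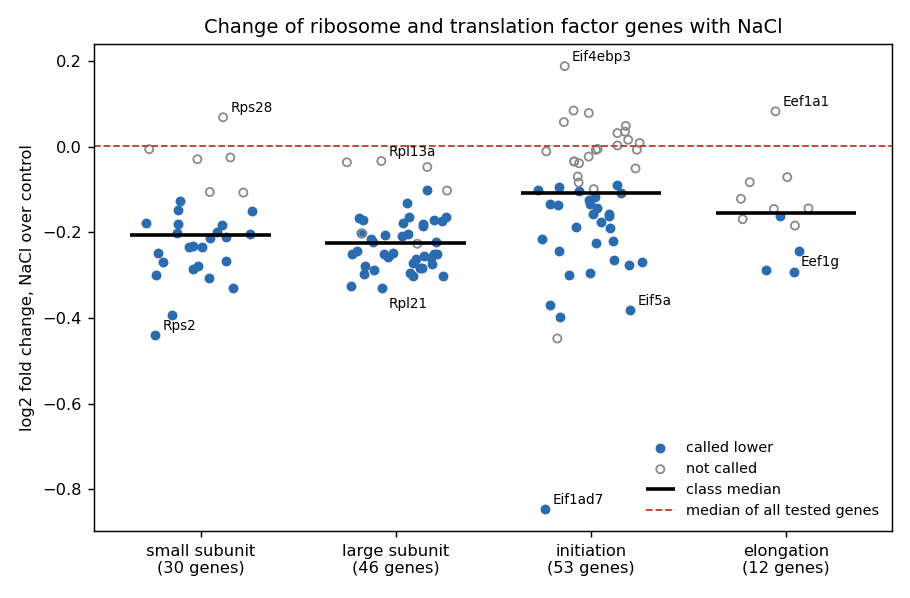
Log2 fold change with NaCl (vertical axis) for each tested member, by class. Filled points were called lower, open points were not called, black bars are class medians and the dashed line is the median of all 14024 tested genes. The points of the large subunit lie under 0 in all 46 genes, while the initiation genes spread to both sides of it.

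The small-subunit genes together took 1.60, 1.72, 1.67 and 1.68% of all counts in the 4 control libraries and 1.400, 1.403, 1.46 and 1.46% in the 4 NaCl libraries. The large-subunit genes took 2.82, 2.99, 2.93 and 2.95% in the control and 2.46, 2.499, 2.57 and 2.58% in the NaCl libraries. Both shares were lower in every NaCl library than in any control library, by a ratio of 0.858 for the small and 0.865 for the large subunit. Initiation genes took 1.19 ± 0.0244% (SD, n = 4) in the control and 1.09 ± 0.0134% in the NaCl libraries, again without overlap. Elongation genes took 1.52 ± 0.0481% and 1.54 ± 0.0424%, and there the groups overlapped. The 10 elongation members other than Eef1a1 and Eef2 took 0.1476 to 0.1515% in the control and 0.1267 to 0.1290% in the NaCl libraries, without overlap. A sum over members carries no test here.

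**Figure D2:**
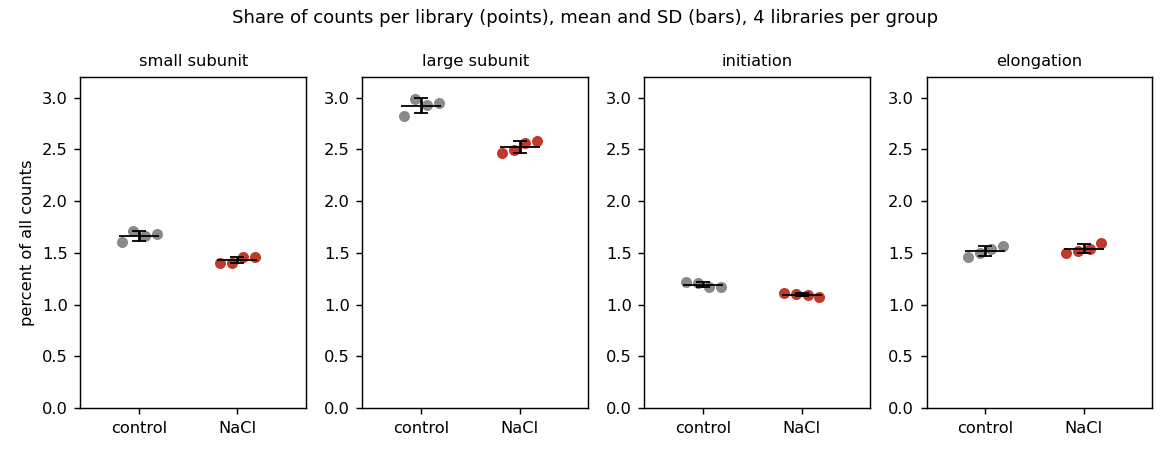
Percent of all counts (vertical axis, from 0) taken by each class in each library, with the mean and SD of 4 libraries per group. The small-subunit, large-subunit and initiation shares separate the groups, and the elongation shares of the control libraries (1.46 to 1.57%) overlap those of the NaCl libraries (up to 1.60%).

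Within the small subunit the lowest fold changes were those of Rps2, Rps27a and Rps18, and 21 of the 24 called genes had no overlap between the groups. Rps2 (chr17:24718116-24721929 on GRCm38) encodes a protein near the entry of the messenger RNA channel. Its level was 1894, 1928, 1823 and 1849 CPM in the control and 1330.2, 1421, 1416 and 1358 CPM in the NaCl libraries. All NaCl libraries lay well under all control libraries, and the level was 26.3% lower (log2 fold change -0.44 ± 0.033 SE, adjusted p = 3.4e-08, edgeR). Of its transcript, 84.6% was shared in near-identical form with other annotated genes, and the effect of this on its counts was not tested.

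Rps27a (chr11:29545846-29548109) encodes a fusion of ubiquitin with a ribosomal protein and fell by 0.39 ± 0.033 on the log2 scale (adjusted p = 1.2e-07, edgeR). It measured 400.1, 426, 417 and 416 CPM in the control against 316, 305, 318 and 325 CPM with NaCl, with no overlap. Rps18 (chr17:33951999-33956001), whose start is shown above, fell from 812 ± 22.6 to 647 ± 23.8 CPM (SD, n = 4 each; fold change -0.33, adjusted p = 1.8e-06, edgeR).

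Rps6 (chr4:86854660-86857412) encodes the protein that S6 kinases phosphorylate under mTORC1. Its level was 615, 647, 641 and 647 CPM in the control and 534, 522, 546 and 546 CPM in the NaCl libraries. The groups did not overlap, and the fold change was -0.25 ± 0.032 (adjusted p = 1.6e-05, edgeR).

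The called small-subunit genes nearest to no change were Rps15 (-0.15, adjusted p = 0.0021), Rps19 (-0.15, adjusted p = 0.040) and Rps9 (-0.13, adjusted p = 0.016), all by edgeR. The NaCl libraries of Rps15 lay under its control libraries, while those of Rps19 and Rps9 overlapped them. The call of Rps19 was lost without control replicate 2, 3 or 4 or NaCl replicate 5, 6 or 7 (adjusted p 0.062 to 0.108), and that of Rps9 without NaCl replicate 5 or 6 (adjusted p 0.057 and 0.059). Rps3, Rps21, Rps27, Rps28 and Rps29 were among the genes not called, and of the 76 ribosomal protein genes only Rps28 had a fold change above 0, at 0.07 ± 0.098.

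Rps27 and Rps27l encode near-identical small-subunit proteins, the latter known as a target of p53. Rps27 (chr3:90212522-90213651) measured 177, 222, 219 and 202 CPM in the control and 191, 191, 212 and 209 CPM with NaCl, and the groups overlapped fully (fold change -0.03 ± 0.069, adjusted p = 0.78, edgeR). Rps27l (chr9:66946086-66949516), none of whose transcript was shared under the criterion used, measured 67.2, 70.7, 67.3 and 66.0 CPM in the control and 58.1, 51.0, 59.9 and 56.4 CPM with NaCl. These groups were apart, and the fold change was -0.27 ± 0.049 (adjusted p = 4.9e-04, edgeR). Within each library the log2 ratio of Rps27 to Rps27l was higher by 0.24 ± 0.079 with NaCl, without overlap (exact two-sided permutation p = 0.0286, the smallest that 4 against 4 libraries can give), which became 0.0643 after adjustment over the 9 pairs of paralogues compared.

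The fold changes of the large-subunit genes ran from -0.33 to -0.03, and 36 of the 40 called genes had no overlap between the groups. Rpl21 (chr5:146832890-146837032) had the lowest fold change. It measured 751, 766, 770.2 and 769 CPM in the control and 595, 605, 622 and 610.1 CPM with NaCl, so that the spread within each group was far smaller than the difference between them. Its fold change was -0.33 ± 0.030 (adjusted p = 3.1e-07, edgeR), a level 20.4% lower.

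Rpl10 (chrX:74270812-74273135), whose protein is added late in ribosome assembly and is needed for the subunits to join, fell from 884 ± 40.3 to 706 ± 37.5 CPM (fold change -0.33, adjusted p = 1.5e-05, edgeR). Rpl13 (chr8:123102350-123105244) fell from 1482 ± 18.3 to 1202 ± 46.5 CPM (fold change -0.30, adjusted p = 3.0e-06, edgeR). For both, every NaCl library lay under every control library. Rpl4 (-0.30) and Rpl8 (-0.29), with 0 and 11.0% of their transcripts shared, were called as well.

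The stalk of the large subunit, which recruits the elongation factors, is made of Rplp0, Rplp1 and Rplp2, and all 3 genes fell. Rplp0 (chr5:115559467-115563727) measured 1982, 2051, 2040.1 and 2079 CPM in the control and 1654, 1753, 1756 and 1827 CPM with NaCl (fold change -0.22 ± 0.035, adjusted p = 1.0e-04, edgeR). Rplp1 fell from 734 ± 24.8 to 603 ± 19.4 CPM (-0.28, adjusted p = 1.0e-05) and Rplp2 from 305 ± 9.74 to 272 ± 8.61 CPM (-0.16, adjusted p = 0.0015). The groups were apart in each of the 3. Of the Rplp1 transcript 99.4% was shared in near-identical form with another annotated gene, and the effect of this on its counts was not tested.

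The called large-subunit genes nearest to no change were Rpl23a (-0.10, adjusted p = 0.032), Rpl3 (-0.13, adjusted p = 0.045) and Rpl37 (-0.16, adjusted p = 0.021), all by edgeR. Rpl3 forms part of the catalytic centre, and its control (684 to 778 CPM) and NaCl libraries (645 to 738 CPM) overlapped. Its call was lost without control replicate 2, 3 or 4 or NaCl replicate 5, 6 or 7 (adjusted p 0.080 to 0.133). That of Rpl23a was lost without control replicate 2 or 3 or NaCl replicate 5 or 6 (adjusted p 0.059 to 0.097), and that of Rpl37 without control replicate 2 (0.063) or NaCl replicate 6 (0.069). Rpl13a, Rpl22, Rpl37a, Rpl38 and Rpl39 were among the genes not called.

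Control replicate 1 had the lowest level of its group in 65 of the 76 ribosomal protein genes, and it was also the library with the most counts. In the NaCl group the lowest level was in replicate 5 in 40 genes and in replicate 6 in 36, and the highest was in replicate 8 in 48. Without control replicate 1, 26 small-subunit and 43 large-subunit genes were called lower, and the medians were -0.24 and -0.26. Rpl39, which lies in the exit tunnel, had a fold change of -0.23 (adjusted p = 0.059, edgeR) with all libraries, and was called at -0.28 without control replicate 1 (adjusted p = 0.027) and at -0.28 without NaCl replicate 7 (0.018). With all libraries it was also called by DESeq2 (0.012) and with upper-quartile factors (0.049).

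Several of the uncalled ribosomal protein genes have short transcripts. Among small-subunit genes whose longest coding transcript is under 700 bases, 6 of 11 were called lower, against 18 of 19 of the longer ones, and the median fold changes were -0.15 and -0.21. Among large-subunit genes the counts were 8 of 11 and 32 of 35, with medians of -0.23 and -0.22. The cut at 700 bases was chosen after the values were seen. Across all 76 ribosomal protein genes the fold change had a Pearson r of -0.05 with transcript length and of -0.24 with the share of the transcript found in other genes. The points share the same libraries, and neither value is more than a description.

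**Figure D3:**
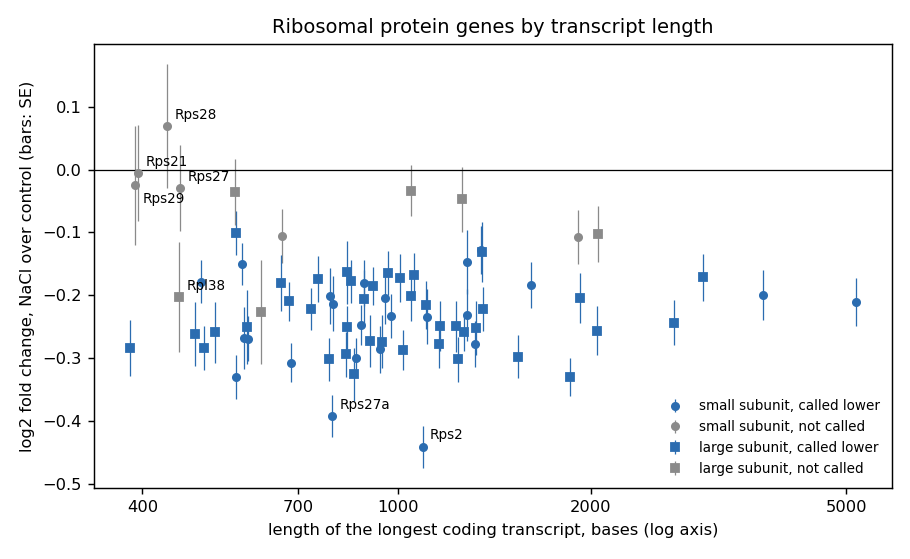
Log2 fold change with NaCl (vertical axis, bars show the SE) against the length of the longest coding transcript in bases (log axis) for the 76 ribosomal protein genes. Rps21, Rps27, Rps28 and Rps29 form a group of short, uncalled small-subunit genes near 0, with wider error bars than most, and the longer genes lie mostly between -0.33 and -0.10.

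The initiation genes spread more widely, from -0.85 to 0.19 on the log2 scale. They were grouped by the factor they belong to, beginning with the scanning small subunit. Eif1, which guards the choice of start codon, measured 296, 284, 279 and 275 CPM in the control and 259, 268, 272 and 264 CPM with NaCl, and its fold change was -0.09 ± 0.034 (adjusted p = 0.042, edgeR). The groups were apart but close, and the call was lost without control replicate 1 or 2 or NaCl replicate 5, 6 or 8 (adjusted p 0.073 to 0.112). Eif1ax was called at -0.10 (adjusted p = 0.0498) with overlapping groups, and its call was lost without control replicate 1 or 2 or NaCl replicate 6, 7 or 8 (adjusted p 0.098 to 0.139). Both calls were also lost when libraries were scaled by their totals alone (adjusted p = 0.082 and 0.114). Eif1b (0.06) and Eif1a (-0.04) were not called.

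The eIF2 complex carries the initiator tRNA, and 3 of its 4 genes were called lower. Eif2s3x (chrX:94188707-94212862), which encodes the gamma subunit that binds GTP and tRNA, measured 142, 140.3, 134 and 131 CPM in the control and 107, 111, 106 and 99.9 CPM with NaCl. The groups were apart, and its fold change was -0.37 ± 0.040 (adjusted p = 2.3e-06, edgeR). Its Y-linked copy Eif2s3y measured 25.1 ± 3.47 CPM in the control and 25.96 ± 1.52 CPM with NaCl (fold change 0.05, adjusted p = 0.71). Eif2s2, the beta subunit, fell by 0.27 on the log2 scale (adjusted p = 4.8e-05, edgeR). Eif2s1, whose protein is the alpha subunit phosphorylated by the stress kinases, was called at -0.13 (adjusted p = 0.029), lost without control replicate 1 or 2 or NaCl replicate 6, 7 or 8 (adjusted p 0.061 to 0.101) and with library totals alone (0.063).

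Of the 5 genes of eIF2B, the complex that recharges eIF2 with GTP, 1 was called lower, near the 17.2% of all tested genes. Eif2b3 measured 26.1, 26.7, 22.2 and 24.4 CPM in the control and 20.8, 19.6, 19.3 and 21.2 CPM with NaCl (fold change -0.30 ± 0.068, adjusted p = 0.0027, edgeR). The catalytic Eif2b5 was not called (-0.07, adjusted p = 0.15), although its NaCl libraries lay under its control libraries. Eif2b2 was the member whose 4 NaCl libraries (61.1 to 64.4 CPM) all lay above the control libraries (57.1 to 59.7 CPM), at a fold change of 0.08 that did not pass adjustment (adjusted p = 0.11, edgeR). The differences between these subunits were not tested.

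The eIF3 complex, the large scaffold on the small subunit, had 9 of 14 genes called lower and all 14 under 0, with a median of -0.12. With the library number as a linear drift in the fit, Eif3b (0.030), Eif3g (0.018), Eif3j1 (0.042) and Eif3l (0.082) lay above 0. Of the 9 calls, which include Eif3b and Eif3j1, those of Eif3d, Eif3e, Eif3h and Eif3m were kept there. Eif3e (chr15:43250058-43282719) measured 244, 261, 250.1 and 253 CPM in the control and 205, 205, 224 and 202 CPM with NaCl (fold change -0.27 ± 0.038, adjusted p = 3.5e-05, edgeR). NaCl replicate 7 was high within its group but still under all control libraries. The core subunit Eif3a fell from 677 ± 16.7 to 616 ± 13.9 CPM (-0.14, adjusted p = 0.0035, edgeR) and Eif3i by 0.28 on the log2 scale. Eif3c was the called gene of the initiation class nearest to 0 (-0.09, adjusted p = 0.031), and its call was lost without control replicate 2 or NaCl replicate 6, 7 or 8 (adjusted p 0.058 to 0.092) and with library totals alone (0.071). Eif3f, Eif3g, Eif3j2, Eif3k and Eif3l were not called.

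In the families named Eif4e, Eif4a and Eif4g, all 3 cap-binding genes were called lower, as were 1 of 3 helicase and 1 of 3 scaffold genes. The families were taken by symbol, and not every member need take part in loading the capped messenger RNA. Eif4e (chr3:138526179-138559696), whose protein binds the cap, measured 119.7, 120.0, 109.5 and 110.0 CPM in the control and 108, 102, 97.8 and 104 CPM with NaCl (fold change -0.16 ± 0.043, adjusted p = 0.0090, edgeR), a call lost with the library number as a linear drift in the fit (-0.016). Its relatives Eif4e2 (-0.13) and Eif4e3 (-0.40, at 8.47 ± 0.598 CPM in the control) were called as well. The helicase gene Eif4a1 (chr11:69666936-69672423) measured 713, 698, 671 and 659 CPM in the control and 567, 578, 577 and 593 CPM with NaCl, a clear gap (fold change -0.24 ± 0.034, adjusted p = 3.1e-05, edgeR). Its close paralogue Eif4a2 measured 422 to 458 CPM and 425 to 452 CPM, and its fold change was -0.02 (adjusted p = 0.66). The helicase cofactor gene Eif4b fell from 859 ± 16.9 to 761 ± 33.5 CPM (-0.18, adjusted p = 0.0011, edgeR).

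The scaffold genes Eif4g1 and Eif4g3, whose proteins join the cap-binding factor to the helicase, were not called. Eif4g1 measured 719, 669, 684 and 668 CPM in the control and 701, 700.1, 682 and 673 CPM with NaCl, with full overlap (fold change 0.01 ± 0.033, adjusted p = 0.87, edgeR). Eif4g3 had a fold change of 0.03. Eif4g2, a relative that lacks the cap-binding factor's site, fell from 1096 ± 31.7 to 1010.0 ± 20.9 CPM (-0.12, adjusted p = 0.0095, edgeR).

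The 4E-BP proteins sequester the cap-binding factor until mTORC1 phosphorylates them. Eif4ebp1 (chr8:27260329-27276674) measured 135, 136, 151 and 149 CPM in the control and 102, 114, 123 and 126 CPM with NaCl (fold change -0.29 ± 0.063, adjusted p = 0.0033, edgeR). Eif4ebp2 was called at -0.10 (adjusted p = 0.044) with overlapping groups, and its call was lost without control replicate 3 or 4 or NaCl replicate 5, 6 or 7 (adjusted p 0.080 to 0.127) and with library totals alone (0.060). Eif4ebp3 was low, at 3.35 ± 0.323 and 3.82 ± 0.592 CPM, and was not called (0.19, adjusted p = 0.36).

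The last steps of initiation and the factors named for it also held decreases. Eif5 (chr12:111538016-111546752), which triggers GTP hydrolysis by eIF2, measured 359.7, 355, 352 and 346 CPM in the control and 298, 298, 305 and 309 CPM with NaCl (fold change -0.22 ± 0.031, adjusted p = 3.0e-05, edgeR). Eif5a (chr11:69916714-69921958), whose hypusine-bearing protein keeps ribosomes moving through difficult stretches, measured 638, 641, 575 and 555 CPM in the control and 459.6, 459.7, 469 and 461 CPM with NaCl. The control libraries varied more than the NaCl libraries and still lay above them all, and the fold change was -0.38 ± 0.043 (adjusted p = 4.5e-06, edgeR). Its paralogue Eif5a2 fell from 22.8 ± 1.18 to 19.7 ± 1.07 CPM (-0.21, adjusted p = 0.017), a call lost without control replicate 2 (adjusted p = 0.062). Eif6, which keeps the subunits apart, fell from 169 ± 4.22 to 149 ± 4.49 CPM (-0.19, adjusted p = 4.6e-04, edgeR).

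The symbol rule also took genes that are not classical initiation factors. Eif1ad7, an eIF1A-domain gene at 2.07 ± 0.199 CPM in the control and 1.15 ± 0.307 CPM with NaCl, had the lowest fold change of all members (-0.85, adjusted p = 0.0078, edgeR), and 95.98% of its transcript was shared with other genes. Eif1ad2 was the member that the filter left out, with 10, 13, 9 and 6 counts in the control and 0, 5, 7 and 4 counts in the NaCl libraries.

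**Figure D4:**
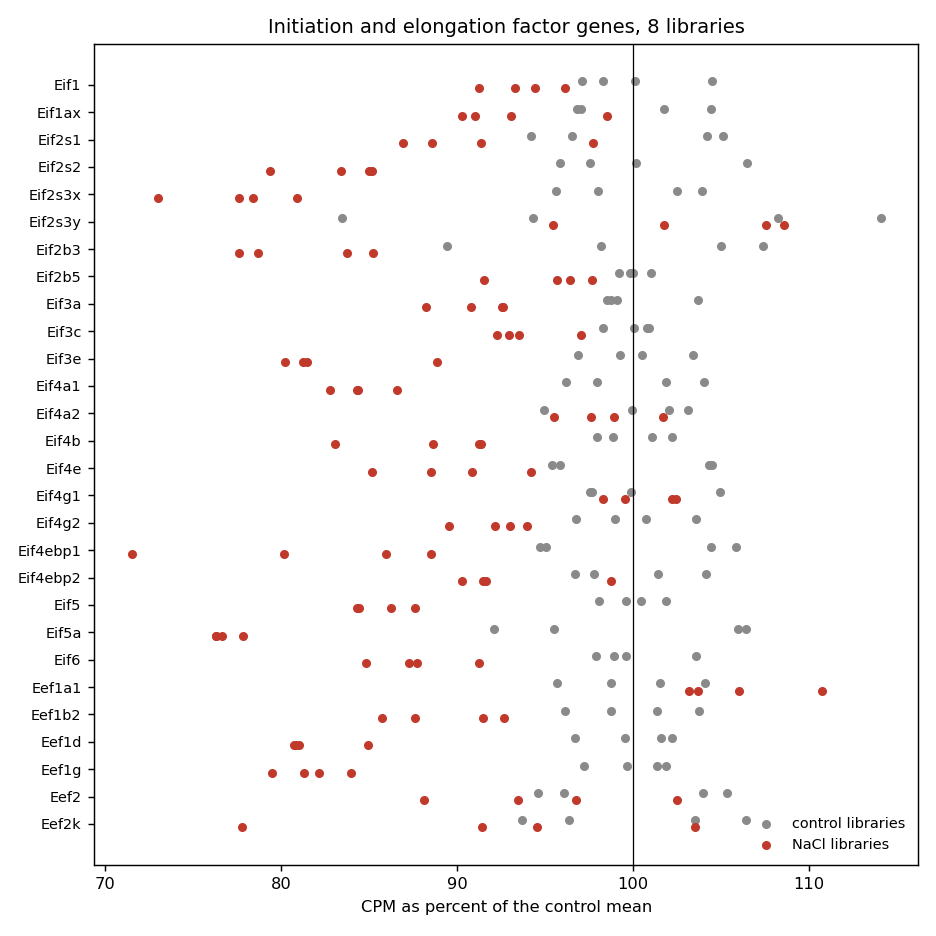
CPM of 28 initiation and elongation factor genes in each library (horizontal axis, percent of the gene's control mean), with control libraries in grey and NaCl libraries in red. Eif2s3x, Eif5a, Eif4a1, Eef1d and Eef1g show gaps between the groups, while Eif4a2, Eif4g1, Eef1a1 and Eef2 show overlap.

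Among the elongation genes a pair dominated the counts. Eef1a1 and Eef2 together held 89.9 to 91.9% of the counts of the class, and neither was called. Eef1a1 (chr9:78478449-78489151), which encodes the protein that delivers aminoacyl-tRNA, had the highest level per transcript length of all members, 5289 ± 191 CPM per kilobase in the control libraries. It measured 9076, 9371, 9635 and 9873 CPM in the control and 9792, 9838, 10062 and 10505 CPM with NaCl. The ranges overlapped, and the fold change was 0.08 ± 0.035 (adjusted p = 0.077, edgeR). The call was gained when libraries were scaled by their totals alone (adjusted p = 0.023), with the library number centred within its group (0.0018) and without control replicate 4 (0.041), and 79.4% of its transcript was shared with other genes.

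Eef2 (chr10:81176631-81182498), the translocase, measured 3999, 4061, 4396 and 4454 CPM in the control and 3725, 3949.7, 4091 and 4334 CPM with NaCl, again with overlap (fold change -0.07 ± 0.047, adjusted p = 0.27, edgeR). With the library number centred within its group as a term, Eef2 was called at the same fold change (adjusted p = 0.010). Its inhibitory kinase gene Eef2k was not called (-0.12, adjusted p = 0.23), with NaCl libraries from 34.9 to 46.5 CPM that overlapped control libraries from 42.1 to 47.8 CPM. Eef2kmt, a methyltransferase of eEF2, was called at -0.24 (adjusted p = 0.038), and the call was lost without control replicate 3 or 4 or NaCl replicate 5, 6 or 7 (adjusted p 0.063 to 0.112) and with limma-voom (0.053).

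The eEF1B complex recharges eEF1A with GTP, and its 3 genes were all called lower with no overlap between the groups. Eef1g (chr19:8967041-8978479) measured 728, 759, 746 and 763 CPM in the control and 595, 609, 615 and 629 CPM with NaCl (fold change -0.29 ± 0.032, adjusted p = 2.4e-06, edgeR). Eef1d (chr15:75894205-75909556) measured 214, 213, 209 and 203 CPM in the control and 178, 169.5, 169 and 169.8 CPM with NaCl (-0.29 ± 0.033, adjusted p = 4.8e-06, edgeR). Eef1b2 (chr1:63176825-63180486) measured 387, 398, 418 and 408 CPM in the control and 345, 353, 368 and 373 CPM with NaCl (-0.16 ± 0.036, adjusted p = 0.0021, edgeR). Each of the 3 was under its control range in every NaCl library.

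The log2 ratio of Eef1a1 to each of these genes within a library does not depend on scaling. It was higher with NaCl by 0.25 ± 0.018 for Eef1b2, 0.37 ± 0.056 for Eef1d and 0.37 ± 0.020 for Eef1g, with no overlap in any of the 3. These ratios were chosen after the values of the genes were seen, so they are a description and no p-value is given for them. With the library number as a linear drift in the fit, the fold changes of the single genes were -0.065 for Eef1a1, -0.30 for Eef1b2, -0.19 for Eef1d and -0.38 for Eef1g, so that Eef1d lay nearer to Eef1a1 than without the drift.

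Among the 9 pairs of paralogues, the ratios of Eif4a1 to Eif4a2 (-0.22 ± 0.053), Eif4ebp1 to Eif4ebp2 (-0.19 ± 0.063) and Eif4g1 to Eif4g2 (0.13 ± 0.016) also separated the groups, each with an exact permutation p of 0.0286 and 0.0643 after adjustment over the 9 pairs. The ratio of Eif2s3x to Eif2s3y was lower by 0.42 ± 0.147 and that of Eif5a to Eif5a2 by 0.16 ± 0.057, with overlap (exact permutation p = 0.0571, adjusted 0.0857). Eif1 to Eif1b, Eif1a to Eif1ax and Eif4e to Eif4e2 overlapped, with exact permutation p-values of 0.257, 0.257 and 0.629. With the library number as a linear drift in the fit, the single fold changes of Eif4a1 and Eif4a2 (-0.20 and -0.15) and of Rps27 and Rps27l (-0.25 and -0.26) lay closer together. Those of Eif4ebp1 and Eif4ebp2 (-0.61 and -0.23) lay further apart, those of Eif4g1 and Eif4g2 were 0.11 and -0.0088, and Eif2s3x (-0.21) lay above Eif2s3y (-0.35). No pair passed after adjustment. The p of 0.0286 is the smallest that 4 libraries a group can give, and with 4 of 9 pairs at it the adjusted value was 0.0643. To pass, more pairs would have had to reach that smallest p, so the missed threshold does not show that these paralogues changed alike.

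**Figure D5:**
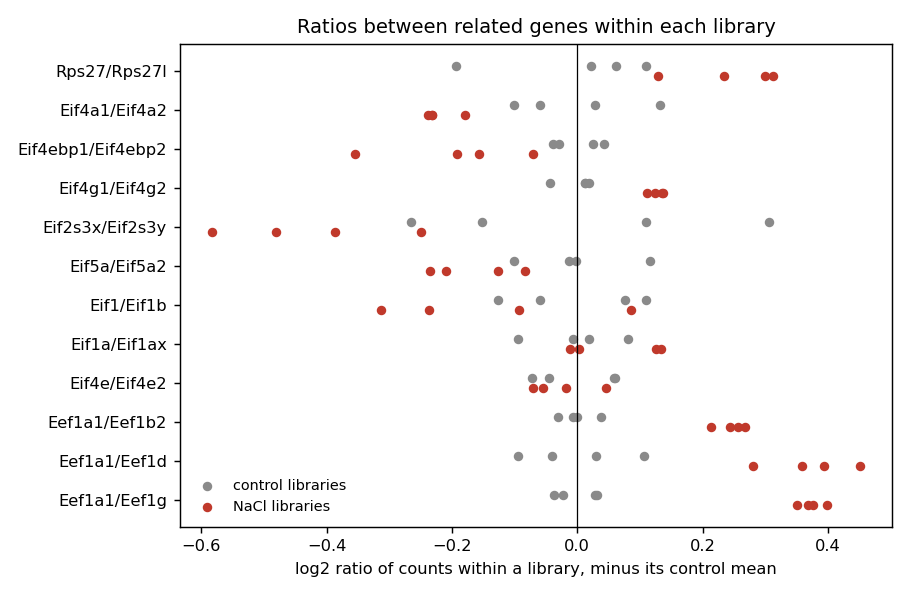
Log2 ratio of counts between related genes within each library, after subtracting the mean of the control libraries (horizontal axis). Grey points are control and red points NaCl libraries. The ratios of Eef1a1 to Eef1b2, Eef1d and Eef1g lie to the right in every NaCl library, and that of Eif4a1 to Eif4a2 lies to the left.

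Levels per kilobase of the longest coding transcript in the control libraries had higher medians in the ribosomal protein classes, but the ranges of all classes overlapped. The median was 516 CPM per kilobase over the small-subunit genes and 518 over the large-subunit genes, against 38.8 over the initiation and 20.3 over the elongation genes. Elongation genes ran from 0.424 (Eef1akmt3) to 5289 (Eef1a1), with an upper quartile of 256. That class includes 6 kinase and methyltransferase genes beside the elongation factors, so its median does not describe the factors alone. Rpl13 (1899.9) and Rps2 (1713) were highest among the ribosomal protein genes and Eif5a (419) among the initiation genes. With all exons merged as the length, the medians were 257, 252, 35.5 and 17.8, and Rplp1 (1471) was highest among the ribosomal protein genes and Eif3h (269) among the initiation genes.

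Numbering the libraries 1 to 8 as a linear drift in the fit, which estimates the group difference apart from a trend along that order, left 12.6% of all tested genes called lower. There 24 of the 24 small-subunit and 38 of the 40 large-subunit calls were kept, and the medians of the 2 classes were lower, at -0.32 and -0.34. Of the 30 initiation calls 13 were kept, and 17 genes were called in all. Of the member genes named above as called, Eif1 (-0.046), Eif2b3 (-0.20), Eif2s2 (-0.15), Eif3a (-0.061), Eif3c (-0.041), Eif3i (-0.15), Eif4e (-0.016), Eif4e2 (-0.12), Eif4g2 (-0.0088), Eif5a2 (-0.18), Eif1ad7 (-0.70) and Rpl37 (-0.19) lost the call. Eif2s1 (0.040), Eif1ax (0.053), Eif3b (0.030) and Eif3j1 (0.042) lost it and changed sign. The number runs closely with the group, and standard errors of many genes were larger in that fit (0.132 for Eif2b3, 0.116 for Rpl37 and 0.475 for Eif1ad7). A lost call therefore need not mean a smaller change, and that of Rpl37 went from -0.16 to -0.19. Of those named as not called, Eef2 (-0.33, adjusted p = 1.1e-06, edgeR), Eef2k (-0.36), Eif4a2 (-0.15), Eif2s3y (-0.35), Eif3f (-0.22), Eif3k (-0.23), Rpl13a (-0.23), Rpl22 (-0.30) and Rps3 (-0.30) were called lower in that fit, and Eef1a1 was at -0.07 (adjusted p = 0.31).

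Other genes of the translation pathway were taken from a list of 65, of which 64 were tested; 22 were called lower and 5 higher, beside 17.2% and 16.9% of all tested genes. Ribosomal protein genes whose symbols fall outside the rule had 4 of 9 called lower, led by Rpsa (1263 ± 30.4 to 986 ± 30.7 CPM, fold change -0.36, adjusted p = 3.7e-07, edgeR), which encodes a small-subunit protein also known as the laminin receptor. Of the 7 poly(A)-binding and helicase partners, Pabpc1 and Pabpc4 fell by 0.39 each on the log2 scale (adjusted p = 6.1e-08 and 9.1e-08), and the helicase gene Ddx3x rose by 0.16 (adjusted p = 0.0011). Of the Pabpc4 transcript 94.7% was shared with other genes.

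Of 10 other genes known for a terminal oligopyrimidine start, 9 were called lower, with a median of -0.22. Vim, the intermediate filament gene, fell from 2205 ± 55.4 to 1581 ± 82.8 CPM (fold change -0.48, adjusted p = 5.6e-08, edgeR), Gas5 by 0.40 and Npm1 by 0.37. Tpt1, whose transcript is a classical example of the motif, measured 2328 to 2558 CPM in the control and 2295 to 2558 CPM with NaCl, and was not called (-0.01, adjusted p = 0.85).

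In the other pathway groups the counts called lower (1 of 6, 3 of 14, 2 of 10 and 1 of 8) were near the 17.2% of all tested genes. Of the 6 kinases and phosphatase subunits of eIF2, Eif2ak2 (PKR, which senses double-stranded RNA) fell from 308 ± 26.5 to 249.8 ± 10.7 CPM (-0.30, adjusted p = 7.6e-04, edgeR), a call lost with the linear drift in the fit (-0.03). Of 14 genes of the mTORC1 arm and the 4E kinases, 3 were called lower, among them Larp1 (-0.14, adjusted p = 0.0027), and 2 higher, Deptor (0.34, adjusted p = 0.017) and Mlst8 (0.23, adjusted p = 0.0046). The call of Deptor, at 7.54 ± 0.762 CPM in the control, was lost without control replicate 1 or NaCl replicate 7 or 8 (adjusted p 0.051 to 0.057) and with the drift (adjusted p = 0.99). Among termination, recycling and rescue genes Denr was called at -0.20 (adjusted p = 0.0064, edgeR), reversed to 0.065 with the drift, and Gcn1 at 0.14 (adjusted p = 0.0026). Of the 8 genes that modify eIF5A and eEF2, 1 was called lower and 1 higher, with a median of 0.056. Dph5, which acts in diphthamide synthesis, fell from 15.3 ± 0.411 to 10.8 ± 0.425 CPM (-0.50, adjusted p = 5.2e-05, edgeR), and Dhps, which begins the hypusine modification of eIF5A, rose by 0.15 (adjusted p = 0.025, edgeR).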

How the data were processed

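The input was the deposited table of raw counts for 8 libraries, with genes by Ensembl identifier and symbol, and the deposited normalized table was not used. The submitters' processing notes name Trim Galore 0.6.7, STAR, DESeq2 1.34.0 and mm10, with no role or order. Settings, the counting program and strandedness were not given in the sources used here, so reads of overlapping or antisense genes may be mixed.

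The members and lists were chosen with earlier results of these data known. Genes were filtered with filterByExpr (minimum count 10), scaled by TMM and fitted with the robust quasi-likelihood test of edgeR 4.0.16 in R 4.3.3, with Benjamini-Hochberg adjustment over 14024 genes. The code was tested on simulated data. CPM used TMM-scaled totals, except for the cell type markers, where the totals were unscaled. Alternatives used DESeq2 1.42.0 and limma 3.58.1. The test of paralogue ratios was an exact two-sided permutation of library labels.

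Gene positions and lengths came from GENCODE M21 on GRCm38, which held all 142 members, and start sequences from RefSeq promoters of GRCm38.p6, matched for 103 members. Shared sequence is the share of a gene's transcripts aligned by blastn 2.17.0 to another annotated gene over at least 75 bases at 98% identity. Depth limits the low genes most, and the standard errors include counting error.

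Named genes were, in each class, the 3 called members with the lowest and the 3 with the highest fold change with a mean log2 CPM reaching 3, genes fixed by role, every member left out by the filter, and the called gene that changed most in each pathway group. Other members given as examples were chosen after their values were seen. Rpl3l, Rpl39l and Eef1a2, also on that list, are not analysed here. The single-gene results of some members are not reported here.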

Additional observations from a re-analysis of the deposited data

Results flagged for a closer look

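In 6 member genes a single library was far above or below the other 3 libraries, its gap to the nearest of them taking most of the group's range (Dixon's criterion). These were Eef1d in NaCl replicate 5 (178.1 CPM, others 169.3 to 169.8), Eif3a in control replicate 1 (701.8 CPM, others 666.7 to 670.7), Eif3e in NaCl replicate 7 (223.9 CPM, others 202.2 to 205.4), Eif4ebp2 in NaCl replicate 8 (153.5 CPM, others 140.4 to 142.5), Rpl37 in NaCl replicate 6 (167.3 CPM, others 186.8 to 189.6) and Rplp1 in control replicate 2 (771 CPM, others 719.4 to 723.2). Total counts stood apart in control replicate 1 (47.57 M, others 41.77 to 42.73) and in NaCl replicate 5 (35.29 M, others 41.37 to 42.39). The 124 groups of 4 libraries examined did not cover every member. Of these groups 8 stood apart in this way, and chance marks about 1 in 20 groups, or 6.2 of 124.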

How the results depend on the processing

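Of the 98 members called lower, 91 were called under all 8 other scalings, filters and tools, 85 under all 8 fits that left out a library, and all 98 stayed under 0 in those fits. Leaving out each library in turn gave 22 to 26 small-subunit, 37 to 43 large-subunit, 24 to 29 initiation and 3 to 4 elongation genes called lower, 0 to 1 elongation genes called higher, and medians of -0.24 to -0.19, -0.26 to -0.22, -0.13 to -0.11 and -0.17 to -0.13. Library totals alone, the library number centred within its group, and leaving out control replicate 4 each called 1 elongation gene higher, Eef1a1. With the number as a linear drift the medians were -0.32 (small subunit), -0.34 (large subunit) and -0.25 (elongation), and 17 initiation genes were called lower. Among the named genes Denr (0.065), Eif1ax (0.053) and Eif2s1 (0.040) reversed, as did the called members Eif3b (0.030) and Eif3j1 (0.042) outside that list. The cause was not tested. Members with under 20% shared sequence gave 7 of 10 small-subunit, 4 of 5 large-subunit (median -0.27) and 2 of 8 elongation genes called lower, from fewer genes. Pyrimidine starts numbered 39 within 5 bases of the RefSeq start and 49 at GENCODE starts, and merged exons gave median levels of 257, 252, 35.5 and 17.8 CPM per kilobase. The GENCODE starts, the split at 700 bases, the ratios of Eef1a1 and leaving out libraries for the ratios were chosen after seeing the data. Over 57 named genes and their alternatives, 986 of 1083 values kept direction and call, 83 lost the call, 11 gained it and 3 reversed. No paired analysis was possible because the groups share no replicate number. Depth limits the lowest members most, such as Eif1ad2, which was not tested, Eif1ad15 (0.416 CPM in the control) and Eef1akmt3 (1.15 CPM).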
